A study of Mus musculus with 8 samples.

Results

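The 35 genes described here encode proteins that take up, bind, activate and oxidize fatty acids, together with the peroxisome proliferator-activated receptors (PPARs) and the cofactors that act with them. They were chosen by symbol from 32780 genes, and all 35 occurred in the tables. Of these, 33 had enough counts to be tested among 15097 genes, and Fabp4 and Pparg did not. Total RNA was measured in 8 libraries of wild-type TC1 cells, a line of mouse embryonic stem cells, by sequencing after depletion of ribosomal RNA. Day 0 comprised 4 libraries of undifferentiated cells, and day 10 comprised 4 libraries of cells differentiated for 10 days. The sources used here name the day 10 cells only as differentiated, with no cell type, medium or inducing agent, and all libraries come from this one line. Whether the 4 libraries of each day stem from separate cultures is not stated, so the p-values measure only the spread between these libraries. Neither a batch nor a date is named, and any batch difference that ran parallel to the days cannot be told apart from them. The question was which steps of fatty acid use differed in RNA level between the days.

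Long-chain fatty acids are freed from lipoproteins at the cell surface, enter with the help of membrane receptors and travel in the cytosol on small binding proteins. Acyl-CoA synthetases activate them, the carnitine shuttle carries them through the mitochondrial membranes, and beta-oxidation shortens them in repeated cycles of dehydrogenation, hydration, dehydrogenation and thiolysis. Electrons from the first dehydrogenation pass through the electron transfer flavoprotein to the respiratory chain. PPARs are nuclear receptors that bind fatty acids, pair with retinoid X receptors and switch on many of these genes, and PGC-1 coactivators and the estrogen-related receptor ESRRA act on an overlapping set. Heart and other working muscle rely heavily on this pathway, whereas pluripotent stem cells are known for a strongly glycolytic metabolism.

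The libraries held 11242568 to 15808039 estimated counts at day 0 and 13525255 to 17843651 at day 10. Differences between the days were widespread: at an adjusted p under 0.05 in edgeR's quasi-likelihood test, 82.1% of all tested genes differed. The summed level of 8 pluripotency markers was 2988 to 3305 CPM (counts per 1000000, from estimated counts scaled for library size and composition) at day 0 and 164 to 219 at day 10, and all 8 fell. Markers of several cell types rose. Summed CPM of 10 cardiomyocyte markers was 54.2 to 64.1 at day 0 and 416 to 645 at day 10, that of 8 endothelial markers 53.9 to 58.4 and 429 to 525, that of 9 macrophage markers 3.08 to 4.15 and 54.1 to 119.4, that of 9 hepatic and visceral endoderm markers 13.9 to 16.5 and 1020 to 3098, and that of 7 fibroblast markers 119.2 to 135 and 5983 to 10668. Every tested cardiomyocyte, endoderm and fibroblast marker rose, as did 7 of 8 tested endothelial and 7 of 8 tested macrophage markers. Of all tested genes, 42.7% rose. Adgre1, Lyz2, Fcgr1, C1qb, Alb, Apoa4 and Fgb had 0 counts at day 0. These and other markers near 0 at day 0 had enough counts to be tested only through day 10. Their rise was therefore fixed by their being tested. The 8 adipocyte markers summed to 7.52 to 9.43 CPM at day 0 and 5.27 to 6.18 at day 10. Adipoq, Cfd and Lep were at 0 counts on day 0, and Cfd, Lep and Retn on day 10. Only 2 of the 8 had enough counts to be tested, of which 0 rose and 1 fell. The sums rest mostly on these 2 and do not describe the list as a whole. In such mixed bulk RNA, more cells of a type and more RNA per cell cannot be told apart. The part of each cell type in the changes below was not tested.

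Of the 33 tested genes, 10 rose (42.7% of all tested genes did), 16 fell (39.4% of all tested genes) and 7 did not pass the threshold. The called share of 78.8% lay near the share over all tested genes. Changes beyond 2-fold were called up for 5 genes, Lpl, Cd36, Fabp5, Ppara and Ppargc1a (24.1% of all tested genes), and down for 3 genes, Fabp3, Acadm and Eci1 (17.3%). The CPM ranges of both days did not overlap for 24 of the 33, beside 77.9% of all tested genes. Their median log2 change was -0.13, and that of all tested genes was 0.06. Cd36, Ppara and Ppargc1a passed the filter on low counts only through their day 10 libraries, so these 3 could be tested only because they were higher at day 10. All 5 genes that rose beyond 2-fold belong to uptake and binding or to the regulators. None of the enzymes and transporters from the acyl-CoA synthetases to the electron transfer proteins was called up beyond 2-fold.

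**Figure D1:**
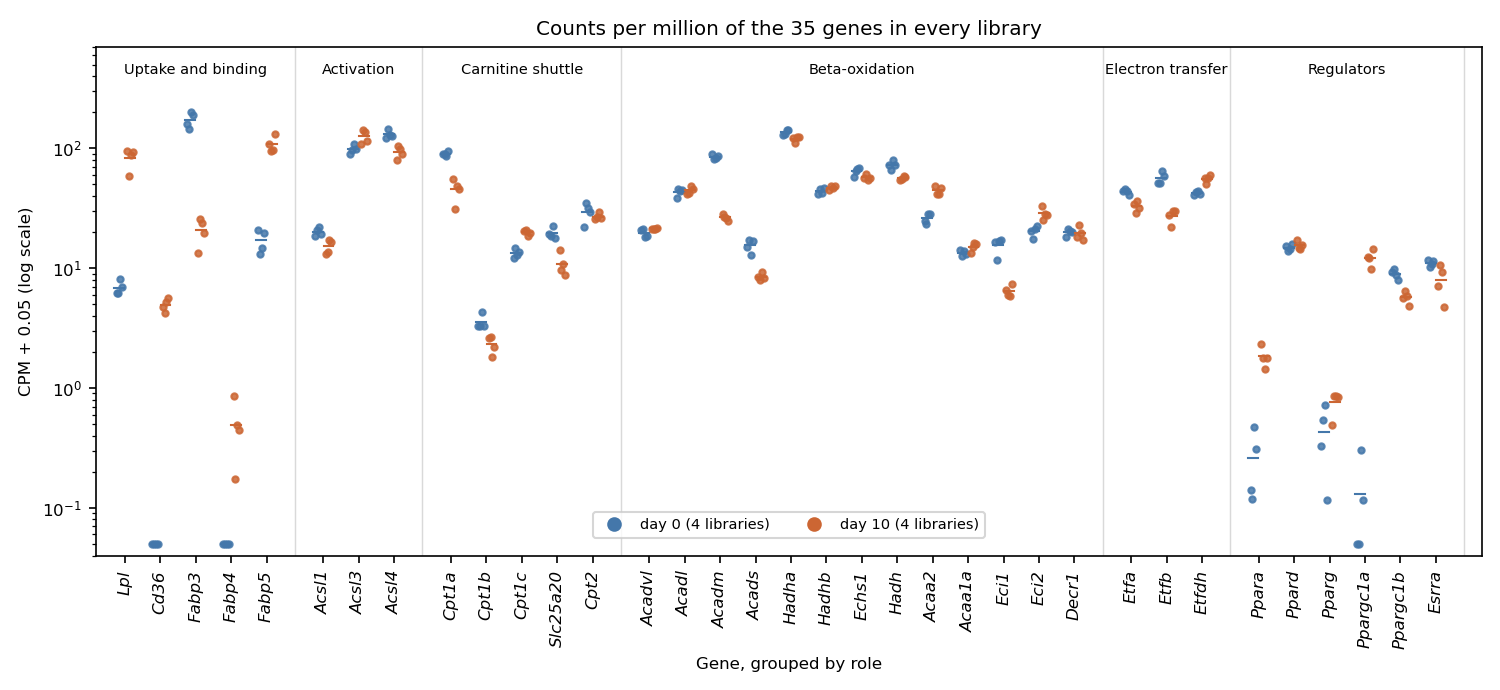
CPM of each of the 35 genes in every library, with 0.05 added, on a logarithmic axis; genes are grouped by role, points are libraries and short lines are means of 4 libraries. The widest gaps between the days are those of Lpl, Cd36, Fabp3, Fabp4 (0 counts at day 0 and few at day 10) and Fabp5 on the left and of Ppara and Ppargc1a on the right, while most beta-oxidation genes lie close together on both days.

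Levels of different genes can be compared only per length, for which the deposited TPM (transcripts per 1000000) were summed per gene. At day 0, Fabp3 had the highest mean level of the 35 genes at 417 ± 41.5 TPM (SD, n = 4), followed by Acsl3 (144.3 ± 25.2), Etfb (137 ± 10.9) and Acadm (117 ± 17.0). The spreads of the last 3 overlapped. At day 10 the order was led by Acsl3 (311 ± 70.7 TPM), Fabp5 (242 ± 36.0), Hadha (108 ± 2.59) and Etfb (99.2 ± 16.3), with the spread of Acsl3 reaching that of Fabp5. Day 0 held 26 of the 35 genes at 10 TPM or more and day 10 held 28. The TPM of Acsl3 rests largely on Acsl3-204, a protein-coding model of 502 bases that carried 58.8% of it at day 0 and 60.2% at day 10, so its place in this order depends on that short transcript. On protein-coding transcripts alone, Acadm was at 63.2 TPM at day 0, below Hadh (66.7) and Echs1 (65.2), and Hadha was at 7.38 TPM at day 10. Between the days, the median log2 change of all tested genes was 0.43 on the TPM scale, with 0.5 added, and 0.06 on counts, and of all called genes 52.0% were higher at day 10 on counts and 65.8% on TPM. Changes on the TPM scale are therefore given relative to that median. In limma on this scale 16 of the tested genes were called and above the median (48.7% of all tested genes) and 8 were called and below it (30.5%). Without that centring 18 were called up (52.1%) and 6 down (27.1%).

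Promoter windows from RefSeq (GRCm38.p6, from 250 bases before to 50 after a start) were found for 28 of the 35 genes, in 31 windows. Fabp4, Fabp5, Lpl, Cpt1b, Decr1, Acaa2 and Ppargc1b had no entry. Each window was searched on both strands for the PPAR element, a direct repeat of AGGTCA with 1 free base between the copies, with up to 2 mismatches, for the estrogen-related receptor element TCAAGGTCA without mismatch and for the single nuclear receptor motif AGGTCA without mismatch. The PPAR element occurred in 4 of the 31 windows, those of Cd36, Echs1, Etfa and Slc25a20, and in 3.86% of 32851 windows of all genes. The estrogen-related receptor element occurred in 0 of the 31 windows and in 0.42% of all windows. The single motif, which is part of both longer elements, occurred in 8 of the 31 windows and in 16.26% of all windows. The stretches around the 4 PPAR element matches are shown in the direction of transcription with the match in capitals. On counts, Cd36 was called up and Slc25a20, Etfa and Echs1 were called down. Cd36 could be tested only because it was higher at day 10, so its direction was fixed by its being tested. The fall of Echs1 lost its call or direction in most of 20 alternatives. The falls of Etfa and Echs1 were both lost once the trend of change with transcript length was removed. Any link between these letters and the direction of change was not tested.
Cd36 (chr5:17835907-17836019, minus strand): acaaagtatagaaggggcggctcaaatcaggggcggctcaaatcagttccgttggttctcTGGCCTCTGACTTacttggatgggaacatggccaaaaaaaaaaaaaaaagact
Etfa (chr9:55512268-55512380, minus strand): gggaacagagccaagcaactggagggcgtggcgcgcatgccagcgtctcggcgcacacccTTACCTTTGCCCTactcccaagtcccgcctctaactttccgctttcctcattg
Echs1 (chr7:140116452-140116564, minus strand): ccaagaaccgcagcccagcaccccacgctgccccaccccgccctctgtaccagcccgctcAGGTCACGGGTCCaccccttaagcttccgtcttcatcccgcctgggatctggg
Slc25a20 (chr9:108662082-108662154, plus strand): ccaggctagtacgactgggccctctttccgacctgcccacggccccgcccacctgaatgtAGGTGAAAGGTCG
The match begins at position -63 in Cd36 and -77 in Etfa, both read on the opposite strand, and at -83 in Echs1 and 7 in Slc25a20, past the start, on the strand shown. An unbroken stretch of bases shortly after the start is part of Etfa-201 and Echs1-201, and was not found in an annotated transcript of Cd36. A first exon that ends within that stretch would be missed. For Fabp3 and Acadm, which had the largest falls of the 33 tested genes on counts, the 250 bases before the start are shown. They hold neither longer element in the letters searched, and the capitals in Acadm mark its single AGGTCA motif, read on the opposite strand, at position -249.
Fabp3 (chr4:130308488-130308737, plus strand): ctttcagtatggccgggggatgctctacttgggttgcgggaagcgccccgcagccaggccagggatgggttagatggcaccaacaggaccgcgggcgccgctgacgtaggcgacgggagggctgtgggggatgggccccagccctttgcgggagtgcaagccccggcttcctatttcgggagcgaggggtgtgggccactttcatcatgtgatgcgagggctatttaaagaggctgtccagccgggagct
Acadm (chr3:153944644-153944893, minus strand): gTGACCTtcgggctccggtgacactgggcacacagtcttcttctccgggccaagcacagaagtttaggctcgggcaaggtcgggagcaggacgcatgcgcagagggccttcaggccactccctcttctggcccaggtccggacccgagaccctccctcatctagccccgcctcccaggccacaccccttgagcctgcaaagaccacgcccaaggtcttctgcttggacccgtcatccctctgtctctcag
These matches describe letters and are not evidence of binding, which was not measured.

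Among the genes of uptake and binding, Lpl, Cd36 and Fabp5 rose and Fabp3 fell. Lpl encodes lipoprotein lipase, the secreted enzyme that frees fatty acids from circulating triglyceride. Its level was 6.18, 6.13, 8.08 and 6.87 CPM in day 0 libraries 1 to 4 and 94.2, 58.2, 88.3 and 93.3 CPM in day 10 libraries 1 to 4. Every day 10 library lay above every day 0 library, with library 2 the lowest of day 10. The log2 change was 3.61 ± 0.17 (SE, edgeR adjusted p = 1.44e-09). Cd36, a membrane receptor that takes up long-chain fatty acids, had 0 counts in all day 0 libraries and 4.71, 4.14, 5.19 and 5.60 CPM at day 10. Against a floor of 3 counts over the day 0 group, its 302 day 10 counts were at least 86.0-fold higher (edgeR adjusted p = 4.51e-08). Its day 10 reads were spread over 5 transcripts, whose order differed between libraries.

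The fatty acid binding proteins exchanged places. Fabp3, the form abundant in heart, had 159, 143.8, 200 and 189 CPM at day 0 and 13.2, 25.9, 23.8 and 19.7 CPM at day 10. Fabp5, the form first described in skin, had 20.8, 13.02, 14.7 and 19.4 CPM at day 0 and 109, 94.8, 96.0 and 130 CPM at day 10. Neither gene's ranges overlapped between the days. Fabp3 fell by 3.06 on the log2 scale (SE 0.20, edgeR adjusted p = 3.87e-07), while the cardiomyocyte markers rose. Fabp5 rose by 2.67 ± 0.16 (edgeR adjusted p = 2.33e-08). Of the summed TPM of Fabp3, Fabp4 and Fabp5, Fabp3 held 93.3 ± 1.64% at day 0 and 21.3 ± 6.73% at day 10, and Fabp5 held 6.71 ± 1.64% and 78.5 ± 6.62% (SD, n = 4). Both shares differed in an exact two-sided permutation test over 70 assignments (p = 0.0286, the smallest such a design can give, adjusted p = 0.0381 over 16 ratios). The Fabp3 share was 28.3% and 25.7% in day 10 libraries 2 and 3 and 14.2% and 17.1% in libraries 1 and 4. Fabp4, the adipocyte form, had 0 counts at day 0 and 0.810, 0.123, 0.438 and 0.392 CPM at day 10, or 26 counts in all, at least 7.4-fold above the floor. It was too low to be tested. The intron-retaining Fabp4-202 held 7.56, 1.0, 6.0 and 4.21 counts in day 10 libraries 1 to 4. The protein-coding Fabp4-201 held 3.44, 1.0, 0 and 2.79. On protein-coding transcripts alone the Fabp4 share did not pass (exact permutation p = 0.143, adjusted p = 0.176). The annotation lists pseudogene copies of Fabp3 and Fabp5, so their reads may be shared with these.

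**Figure D2:**
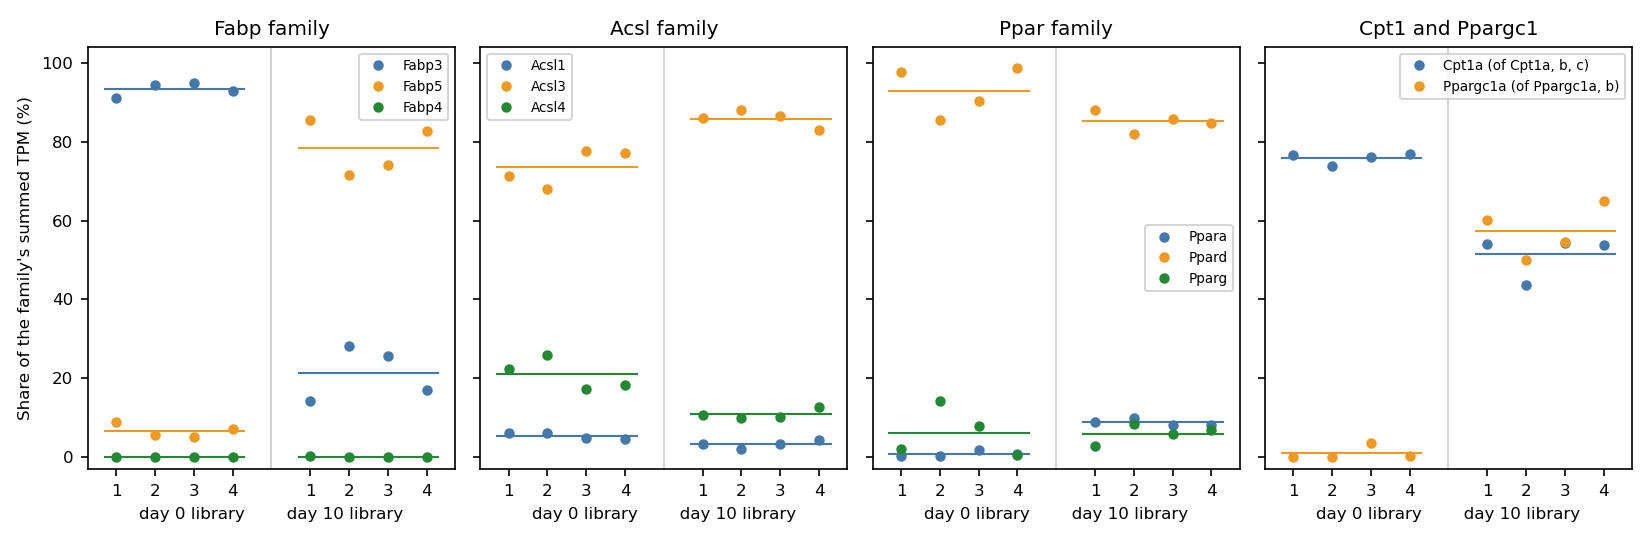
Share of a family's summed TPM held by single members, in percent, in each of the 4 libraries of each day; points are libraries and lines are means. Fabp3 and Fabp5 trade places between the days, Acsl3 gains on Acsl4, and Ppargc1a passes from at most 3.72% to at least 50.02% of the Ppargc1 pair.

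The 3 acyl-CoA synthetases, which join fatty acids to coenzyme A, changed by less than 2-fold on counts. Acsl3, which acts at the endoplasmic reticulum and lipid droplets, had 89.4 to 110 CPM at day 0 and 108 to 142.3 at day 10. The ranges overlapped, with a log2 change of 0.35 ± 0.09 (edgeR adjusted p = 0.0032). Acsl4, which prefers arachidonic acid, had 120.7, 144.3, 129 and 127 CPM at day 0 and 79.3, 105, 97.7 and 90.4 CPM at day 10, with no overlap. It fell by 0.49 (SE 0.09, edgeR adjusted p = 0.000124). Acsl1, the main form in liver, fat and heart, had 18.5 to 21.8 CPM at day 0 and 13.1 to 17.2 at day 10 and fell by 0.41 (SE 0.12, edgeR adjusted p = 0.00539). The family's summed TPM shifted toward Acsl3, from 73.5 ± 4.61% to 85.9 ± 2.08%, and away from Acsl4, from 21.01 ± 3.88% to 10.9 ± 1.21%, and Acsl1, from 5.45 ± 0.81% to 3.24 ± 0.94%. Each shift had an exact permutation p = 0.0286, adjusted p = 0.0381. The size of the Acsl3 share depends on the 502-base Acsl3-204. That transcript held 58.8% and 60.2% of Acsl3 TPM at day 0 and day 10, but 17.6% and 23.7% of its counts. On the TPM scale itself, not set against the median, Acsl1 was at 0.08 and Acsl4 at -0.06 on the log2 scale and neither passed, while against the median they were at -0.35 and -0.49. With the trend of change with transcript length over all genes removed, the log2 change was -1.13 for Acsl4, more than 2-fold, and 0.90 for Acsl3 (edgeR adjusted p = 2.39e-08 and 7.65e-07).

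In the carnitine shuttle the liver form of carnitine palmitoyltransferase 1 fell and the brain form rose. Cpt1a, whose product is the rate-limiting enzyme of mitochondrial fatty acid entry, had 90.4, 88.8, 86.6 and 94.5 CPM at day 0 and 55.8, 31.0, 48.8 and 45.5 CPM at day 10. All day 10 libraries lay below all day 0 libraries, with library 2 again the lowest. It was 1.99-fold lower at day 10 (SE of the log2 change 0.14, edgeR adjusted p = 5.25e-05), which was not beyond 2-fold by test (edgeR glmTreat adjusted p = 0.513). With the length trend removed the log2 change was -1.52 (edgeR adjusted p = 1.62e-06). Cpt1c, the brain form, which resides in the endoplasmic reticulum, had 12.2, 14.6, 12.7 and 13.5 CPM at day 0 and 20.4, 20.7, 18.3 and 19.7 CPM at day 10. It rose by 0.58 ± 0.11 (edgeR adjusted p = 0.000166), and its ranges were apart. Cpt1a held 75.9 ± 1.43% of the summed TPM of the 3 forms at day 0 and 51.4 ± 5.26% at day 10 (exact permutation p = 0.0286, adjusted p = 0.0381). On protein-coding transcripts alone it held 80.9 ± 1.43% and 60.8 ± 6.66% (exact permutation p = 0.0286, adjusted p = 0.0416).

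Cpt1b, the muscle form, was low, at 3.23, 3.27, 4.29 and 3.21 CPM at day 0 and 2.58, 2.59, 1.75 and 2.13 CPM at day 10. It fell by 0.62 (SE 0.23, edgeR adjusted p = 0.0228), but the call was lost without day 0 library 3 (edgeR adjusted p = 0.0763) or without day 10 library 3 (0.0627), and the direction turned to 0.41 once average transcript length was taken into account and to 0.69 on the TPM scale, or 0.27 against the median. Cpt1b-202, an intron-retaining transcript of 339 bases, had 0 counts at day 0 and 5.3, 2.62, 2.25 and 0 at day 10, which on TPM made up 65.2%, 46.3%, 62.3% and 0% of the gene. Chkb, which lies beside Cpt1b, ranged from 128 to 173 counts in day 0 libraries and from 200 to 295 in day 10 libraries, and reads of adjoining transcripts could not be separated here. Slc25a20, the carnitine-acylcarnitine carrier of the inner membrane, had 19.2, 18.5, 22.3 and 17.8 CPM at day 0 and 14.2, 9.69, 10.7 and 8.69 CPM at day 10. It fell by 0.85 (SE 0.15, edgeR adjusted p = 0.000118). Cpt2, which returns the acyl group to coenzyme A in the matrix, had 22.0 to 34.7 and 25.8 to 29.2 CPM and did not pass (log2 change -0.13 ± 0.12, edgeR adjusted p = 0.33). Without day 0 library 1, its lowest, the value was -0.25 (edgeR adjusted p = 0.0304). The log2 ratio of Cpt1a to Cpt2 TPM went from -0.08 ± 0.25 to -1.15 ± 0.47 (exact permutation p = 0.0286, adjusted p = 0.0381).

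The 13 beta-oxidation genes changed in both directions: 2 rose, 6 fell and 5 did not pass, a called share of 61.5% beside 82.1% of all tested genes, with a median log2 change of -0.04. Acadm, the medium-chain acyl-CoA dehydrogenase, had the largest log2 change of the 13 on counts. Its level was 89.0, 82.0, 83.4 and 85.4 CPM at day 0 and 28.0, 26.5, 26.2 and 24.9 CPM at day 10, tight within each day and far apart between them. It fell by 1.69 (SE 0.07, edgeR adjusted p = 3.72e-11), also beyond 2-fold (edgeR glmTreat adjusted p = 8.94e-08). Acads, which acts on short chains, had 14.8, 17.0, 12.9 and 16.9 CPM at day 0 and 8.39, 7.90, 9.28 and 8.18 CPM at day 10 and fell by 0.87 (SE 0.13, edgeR adjusted p = 2.3e-05). The dehydrogenases of longer chains did not pass. Acadvl, for very long chains, had 18.1 to 20.96 and 21.2 to 21.7 CPM (log2 change 0.12 ± 0.09, edgeR adjusted p = 0.236), and Acadl, for long chains, had 38.5 to 45.5 and 41.6 to 48.6 CPM (0.04 ± 0.08, edgeR adjusted p = 0.65). The log2 ratio of Acadvl to Acadm TPM went from -2.85 ± 0.25 to -1.04 ± 0.29 (exact permutation p = 0.0286, adjusted p = 0.0381). It was -0.6 in day 10 library 1 and -1.2 to -1.15 in the others. Acadm-207, an intron-retaining transcript of 323 bases, was at 0 TPM in that library and at 19.7 to 22.4 TPM in the others of day 10. On protein-coding transcripts alone the ratio of Acadvl to Acadm went from -2.1 ± 0.1 to -0.24 ± 0.12 (exact permutation p = 0.0286, adjusted p = 0.0416).

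The trifunctional protein, whose subunits Hadha and Hadhb carry out the later steps on long chains, moved little. Hadha had 129 to 142.6 CPM at day 0 and 110 to 124 at day 10 and fell by 0.18 (SE 0.06, edgeR adjusted p = 0.0202). Without day 10 library 2, its lowest, the value was -0.14 (edgeR adjusted p = 0.0544). Hadhb had 41.4 to 46.3 and 44.7 to 48.2 CPM (log2 change 0.10 ± 0.07, edgeR adjusted p = 0.241). With the length trend removed Hadhb was called up, at 0.21 (edgeR adjusted p = 0.019). The log2 ratio of Hadha to Hadhb TPM was 1.31 ± 0.10 and 0.96 ± 0.24 and did not pass (exact permutation p = 0.0571, adjusted p = 0.0653). On the TPM scale Hadha was at 0.30 (limma adjusted p = 0.00232), and against the median at -0.12. Most Hadha TPM, 81.9% at day 0 and 80.2% at day 10, was assigned to Hadha-201, which the annotation types as a processed transcript and not as protein coding.

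Among enzymes of the shorter chains, Hadh, a 3-hydroxyacyl-CoA dehydrogenase, had 65.5 to 80.2 CPM at day 0 and 54.5 to 58.3 at day 10 and fell by 0.37 (SE 0.07, edgeR adjusted p = 0.000338). Echs1, the short-chain enoyl-CoA hydratase, had 57.1 to 68.9 and 54.6 to 60.9 CPM with overlap and fell by 0.17 (SE 0.08, edgeR adjusted p = 0.0485), a call lost when any of day 0 libraries 2, 3 and 4 or day 10 libraries 3 and 4 was left out (edgeR adjusted p = 0.0567 to 0.113). On the TPM scale Hadh was at 0.05 and Echs1 at 0.23 (limma adjusted p = 0.0359), and against the median at -0.37 and -0.20. Acaa2, the mitochondrial thiolase of the last step, ran the other way. It had 24.9, 23.1, 28.5 and 28.0 CPM at day 0 and 48.6, 41.4, 41.1 and 47.0 CPM at day 10, with every day 10 library above every day 0 library, and rose by 0.77 ± 0.10 (edgeR adjusted p = 3.91e-06). Acaa1a, its peroxisomal counterpart, had 12.7 to 14.01 and 13.2 to 16.1 CPM and did not pass (log2 change 0.17 ± 0.11, edgeR adjusted p = 0.176). Its closely related paralogue Acaa1b was assigned 2.3 to 4.4 counts per library.

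The auxiliary enzymes that handle double bonds of unsaturated fatty acids split. Eci1, a mitochondrial enoyl-CoA isomerase, had 16.4, 11.7, 16.9 and 17.1 CPM at day 0 and 6.48, 5.93, 5.84 and 7.34 CPM at day 10. Its highest day 10 library lay well below its lowest day 0 library, library 2. It fell by 1.27 (SE 0.15, edgeR adjusted p = 2.59e-06). After removal of the trend of change with transcript length over all genes, the value was -0.33 and did not pass (edgeR adjusted p = 0.057). Eci2, the isomerase found in mitochondria and peroxisomes, had 20.3, 17.6, 21.1 and 22.5 CPM at day 0 and 33.3, 25.4, 28.0 and 27.5 CPM at day 10 and rose by 0.49 ± 0.11 (edgeR adjusted p = 0.000997), and by 0.95 with the length trend removed (edgeR adjusted p = 2.3e-06). The log2 ratio of Eci1 to Eci2 TPM turned from 0.69 ± 0.19 to -0.81 ± 0.17 (exact permutation p = 0.0286, adjusted p = 0.0381), and all 4 libraries of each day had the sign of their day. Eci1-207, an intron-retaining transcript of 499 bases, held 61.1% of Eci1 TPM at day 0 and 68.5% at day 10. On protein-coding transcripts alone, the mean of Eci1 was below that of Eci2 on both days, at 16.1 against 26.7 TPM at day 0 and 7.41 against 47.0 at day 10, and the log2 ratio was below 0 in all 8 libraries, at -0.74 ± 0.20 and -2.70 ± 0.38 (exact permutation p = 0.0286, adjusted p = 0.0416). Decr1, the dienoyl-CoA reductase, had 18.1 to 21.3 and 17.2 to 22.8 CPM (log2 change -0.04 ± 0.11, edgeR adjusted p = 0.731).

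**Figure D3:**
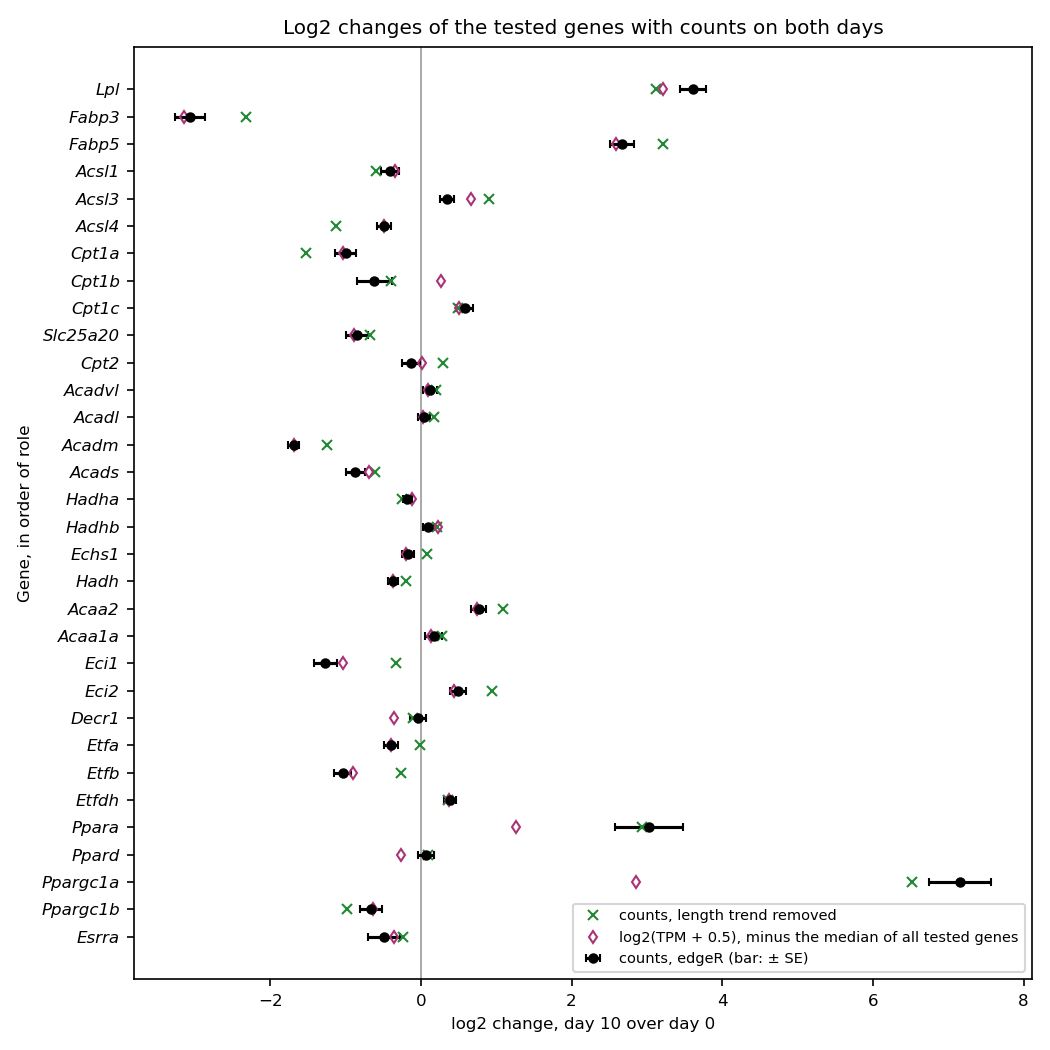
Log2 change from day 0 to day 10 for each tested gene with counts on both days, in order of role: estimated counts in edgeR with bars of ± SE, the same counts after removal of the trend with transcript length, and log2(TPM + 0.5) minus the median of all tested genes. Fabp3 and Acadm are the lowest values and Ppargc1a, Lpl, Ppara and Fabp5 the highest on counts; Eci1, Etfa and Etfb move toward 0 once the length trend is removed, and Ppara and Ppargc1a, which are near 0 TPM at day 0, have smaller values on the TPM scale with its added 0.5.

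The electron transfer flavoprotein, whose subunits Etfa and Etfb take electrons from the acyl-CoA dehydrogenases, fell on counts while its membrane partner rose. Etfb had 50.9, 50.9, 64.7 and 58.9 CPM at day 0 and 27.7, 21.9, 29.8 and 30.2 CPM at day 10, without overlap. It fell by 1.04 (SE 0.11, edgeR adjusted p = 9.3e-07), and by 0.26 after removal of the length trend (edgeR adjusted p = 0.0452). Etfa had 40.3 to 45.3 CPM at day 0 and 28.9 to 36.1 at day 10 and fell by 0.40 (SE 0.09, edgeR adjusted p = 0.000698), but was at -0.01 once the length trend was removed (edgeR adjusted p = 0.943) and at 0.02 on the TPM scale, or -0.40 against the median. Etfdh, the oxidoreductase that passes the electrons to ubiquinone, had 40.6, 42.9, 44.0 and 41.8 CPM at day 0 and 56.6, 50.1, 56.0 and 59.3 CPM at day 10. It rose by 0.39 ± 0.08 (edgeR adjusted p = 0.000262) in all 4 libraries against all 4. The log2 ratio of Etfa to Etfb TPM was -1.30 ± 0.24 and -0.81 ± 0.23 and did not pass (exact permutation p = 0.0571, adjusted p = 0.0653).

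Of the regulators, Ppargc1a and Ppara rose from near 0, Ppargc1b and Esrra fell, and Ppard did not pass. Ppargc1a, the PGC-1 alpha coactivator of mitochondrial and oxidative genes, had 0, 0, 0.253 and 0.0655 CPM at day 0 and 12.3, 12.2, 9.71 and 14.4 CPM at day 10. With 4 counts at day 0 and 754 at day 10, the ratio was 161 (95% counting interval 62.6 to 592), and edgeR gave a log2 change of 7.16 ± 0.41 (adjusted p = 8.61e-10). Without day 0 library 3, which held 3 of the 4 counts, the log2 change was 8.51. Most of its day 10 TPM, 71.7%, came from Ppargc1a-203, a protein-coding transcript of 6464 bases that held 132, 183, 105 and 239 counts in day 10 libraries 1 to 4. Ppargc1b, the related PGC-1 beta, had 9.31, 9.82, 8.76 and 7.85 CPM at day 0 and 5.59, 6.36, 5.84 and 4.82 CPM at day 10, without overlap, and fell by 0.66 (SE 0.15, edgeR adjusted p = 0.00117). The Ppargc1a share of the pair's TPM went from 1.04 ± 1.80% to 57.4 ± 6.53% (exact permutation p = 0.0286, adjusted p = 0.0381).

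The receptors followed separate courses. Ppara, the form of liver and heart that drives oxidation genes, had 0.0922, 0.0696, 0.421 and 0.262 CPM at day 0 and 2.28, 1.73, 1.39 and 1.74 CPM at day 10. All day 10 libraries lay above all day 0 libraries, although on few counts, 11 against 109, a ratio of 8.46 (95% counting interval 4.55 to 17.5). The log2 change was 3.03 ± 0.45 (edgeR adjusted p = 2.3e-05). Ppard, the widely expressed form, had 13.7 to 15.8 and 14.5 to 17.2 CPM (log2 change 0.07 ± 0.11, edgeR adjusted p = 0.566). Pparg, the adipocyte form, had 0.276, 0.488, 0.674 and 0.0655 CPM at day 0 and 0.442, 0.803, 0.803 and 0.785 CPM at day 10, which overlapped, and was too low to be tested. Ppard held 93.0 ± 6.24% of the receptors' summed TPM at day 0 and 85.2 ± 2.60% at day 10 (exact permutation p = 0.0857, adjusted p = 0.0914). The share of Ppara went from 0.86 ± 0.65% to 8.82 ± 0.79% (exact permutation p = 0.0286, adjusted p = 0.0381), and that of Pparg was 6.18 ± 6.22% and 6.01 ± 2.33% (exact permutation p = 0.971). Ppard was the receptor with the highest level per length in each of the 8 libraries. Esrra, the estrogen-related receptor that works with PGC-1, had 11.7, 10.1, 10.8 and 11.4 CPM at day 0 and 6.99, 10.5, 9.28 and 4.65 CPM at day 10. Its ranges overlapped, its fall by 0.49 (SE 0.21) was close to the threshold (edgeR adjusted p = 0.0441), and the call was lost without any one of day 0 libraries 1 to 4 or day 10 libraries 1 and 4 (edgeR adjusted p = 0.0515 to 0.0883). Its log2 change was -0.32 without day 10 library 4, its lowest, and -0.67 to -0.47 without any other library. On the TPM scale it was at 0.07, and at -0.36 against the median.

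Transcript composition was compared for 56 transcripts of 19 of these genes, each at 10% or more of its gene's TPM on at least 1 day. None passed an exact permutation test adjusted over all 28252 transcripts under the same rule (lowest adjusted p = 0.115), and 7 of the 56 had shares that did not overlap between the days (p = 0.0286 each), beside 24.7% of all such transcripts. A p of 0.0286 is the smallest this test can give, so after this adjustment even shares fully apart did not pass. The lack of calls thus does not show that composition was unchanged. These 7 were singled out after their values were seen. Eci1-205, a protein-coding transcript of 1137 bases, was estimated at 78.0, 86.4, 86.5 and 69.8 counts at day 0 and at 1.72, 0, 0 and 0 at day 10. Its share of Eci1 counts was 41.3% and 0.49%. Ppard-209, an intron-retaining transcript, held 34.96 ± 10.05% of Ppard TPM at day 0 and 4.80 ± 6.94% at day 10, although gene-level Ppard did not pass. For Decr1, likewise not called as a gene, the full-length Decr1-201 went from 67.0 ± 5.31% to 88.5 ± 4.81% and the shorter Decr1-203 from 33.0 ± 5.31% to 10.4 ± 4.20%. Lpl-201 went from 75.8 ± 18.3% to 96.7 ± 1.94%, Etfb-206 from 18.8 ± 19.3% to 46.0 ± 9.23%, and Cpt1b-201 from 83.0 ± 19.6% to 38.0 ± 13.6%, each with a wide spread at day 0.

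**Figure D4:**
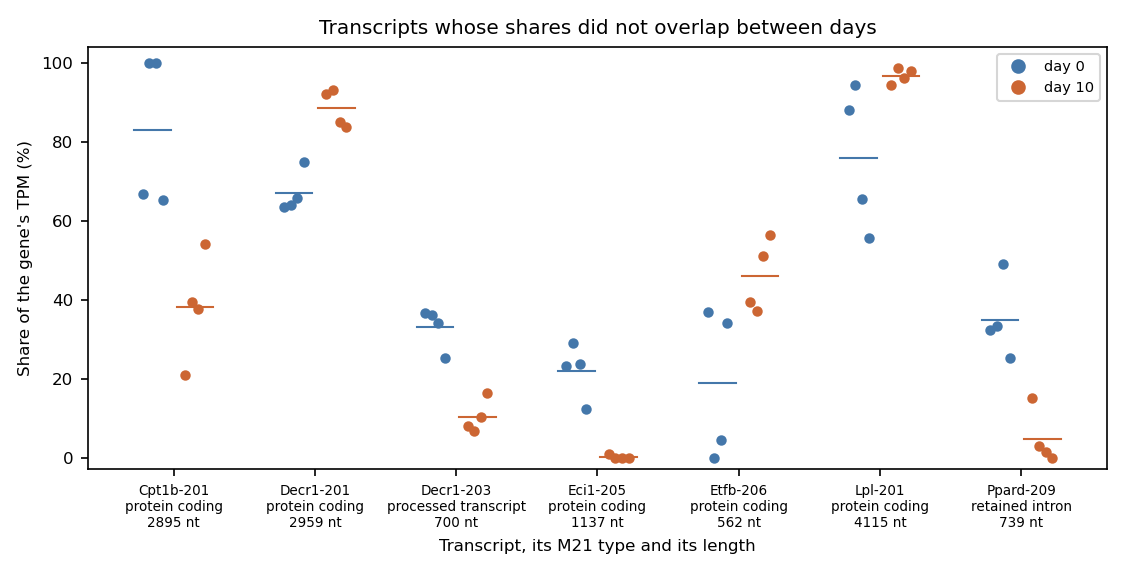
Share of the gene's TPM, in percent, for the 7 transcripts whose shares did not overlap between day 0 and day 10; points are the 4 libraries of each day, lines are means, and the axis gives each transcript's type and length in the annotation. Eci1-205 lies at 12.4 to 29.0% at day 0 and at 0 to 0.89% at day 10, and Ppard-209 falls from at least 25.3% to at most 15.1%.

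Other genes of fatty acid handling moved in both directions as well. Of 14 tested genes of uptake, binding and activation outside the 35, 5 rose, 5 fell and 4 did not pass (median log2 change 0.04). Vldlr, the lipoprotein receptor that works with lipoprotein lipase, rose from 22.7 ± 3.34 to 64.3 ± 14.8 CPM (edgeR adjusted p = 4.24e-06), and Slc27a2, a very long-chain acyl-CoA synthetase and transporter, fell by 3.53 (SE 0.21), from 19.7 ± 2.25 to 1.66 ± 0.589 CPM (edgeR adjusted p = 1.37e-09). Of 15 further mitochondrial oxidation genes, 5 rose, 8 fell and 2 did not pass (median -0.33). Acat1, the acetoacetyl-CoA thiolase, rose by 0.71 ± 0.10 (edgeR adjusted p = 1.22e-05), and Echdc2 fell by 2.09 (SE 0.16, edgeR adjusted p = 2e-08). In peroxisomal oxidation, 7 of 14 tested genes rose, 5 fell and 2 did not pass (median 0.10). Pecr, a peroxisomal enoyl-CoA reductase, fell by 2.17 (SE 0.13, edgeR adjusted p = 1.93e-09).

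Among 19 partners of the PPARs and PGC-1 coactivators, 7 rose, 10 fell and 2 did not pass (median -0.46). Nrip1, a corepressor of nuclear receptors, rose by 1.54 ± 0.06, from 45.0 ± 1.85 to 131 ± 4.13 CPM (edgeR adjusted p = 3.18e-11). Esrrb, a relative of Esrra that belongs to the pluripotency network, fell by 6.81 (SE 0.11), from 306 ± 18.0 to 2.71 ± 0.570 CPM (edgeR adjusted p = 1.23e-14). Of 11 tested genes known as PPAR targets, 4 rose, 4 fell and 3 did not pass (median -0.35). G0s2, an inhibitor of the lipase ATGL, rose by 3.11 ± 0.39, from 0.651 ± 0.346 to 5.55 ± 2.06 CPM (edgeR adjusted p = 5.07e-06). Like Cd36, G0s2 passed the filter on low counts only through its day 10 libraries. It could thus be tested only because it was higher at day 10. Angptl4, a secreted inhibitor of lipoprotein lipase, fell by 3.36 (SE 0.25), from 13.4 ± 1.75 to 1.31 ± 0.502 CPM (edgeR adjusted p = 1.51e-08), the opposite direction to Lpl itself. The called shares of these lists, 71.4 to 89.5%, lay around the 82.1% of all tested genes.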

How the data were processed

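Total RNA of 8 TC1 libraries was compared, 4 at day 0 and 4 at day 10. Each library has 1 table of 126126 transcripts, in which the authors deposited lengths, effective lengths, unscaled estimated counts and TPM, as named per the file headers. The submitters' processing notes name kallisto, with the version given as 1. Its transcript reference and genome build were not given in the sources used here. Deposited TPM values account for effective length and add up to 1000000 in a library. Kallisto divides reads among similar or overlapping transcripts, so paralogues and overlapping genes are uncertain.

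Identifiers without version linked 117992 transcripts (93.6%) to genes of GENCODE M21, and the rest, 1.151 to 1.234% of counts, were left out. Counts were summed per gene and rounded, and 15097 genes passing filterByExpr were tested with edgeR 4.0.16 in R 4.3.3 (TMM, robust quasi-likelihood, Benjamini-Hochberg over all tested genes, threshold 0.05), with glmTreat for changes beyond 2-fold. The common biological coefficient of variation was 12.5%. TPM changes were tested with limma 3.58.1 on log2(TPM + 0.5). Ratios and transcript shares were compared by two-sided exact permutation over 70 assignments, adjusted over 16 ratios and over the transcripts of all genes respectively. The latter adjustment covers more transcripts than first planned. Floors of 3 counts per group and 95% exact intervals cover counting error only, because reads lacking molecular identifiers can be copies of one molecule. The code was tested on simulated data.

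The 35 genes and all lists were chosen with earlier results of these data known. All 35 are named. From each marker list only counts, sums and zeros are given, and from each other pathway list the called gene with the smallest p in each direction is named. Those genes were thus picked for how they moved. A gene that this rule picks is not reported here. The AGGTCA search, the TPM change relative to the median and the counts of the 35 genes under each alternative were added after seeing the data. Alternatives tried were DESeq2 1.42.0 and its size factors, upper quartile scaling, no count filter, transcript length corrections, protein-coding transcripts only, a replicate block, TPM with pseudocounts of 0.1, 0.5 and 1, and leaving out each library.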

Additional observations from a re-analysis of the deposited data

Results flagged for a closer look

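In 8 of 98 checked groups of 4 libraries, 1 library stood apart from the other 3 (Dixon's criterion at the 95% level, which chance meets in about 1 in 20 groups). At day 10, library 2 was apart in 3 of them: Lpl was at 58.2 CPM there against 88.3 to 94.2 in the others, Hadha at 110 CPM against 123 to 124, and the Cpt1a share of Cpt1 TPM at 43.6% against 53.9 to 54.3%. The same library had the lowest summed CPM of macrophage markers, 54.1 against 102.8 to 119.4, and of fibroblast markers, 5983 against 8520 to 10668, and the highest of hepatic and visceral endoderm markers, 3098 against 1020 to 2291. Their part in these values was not tested. Without it, the log2 change of Lpl was 3.75, close to the 3.61 of all libraries.

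Elsewhere at day 10, Acadvl was at 21.7 CPM in library 4 against 21.2 to 21.3 in the others, a gap that is small beside its level. The log2 ratio of Acadvl to Acadm TPM was -0.6 in library 1 against -1.2 to -1.15. The intron-retaining Acadm-207 was at 0 TPM in that library. On protein-coding transcripts alone library 1 was instead the lowest, at -0.41 against -0.21 to -0.14. At day 0, Cpt1b was at 4.29 CPM in library 3 against 3.21 to 3.27, Eci1 at 11.7 CPM in library 2 against 16.4 to 17.1, and the Ppargc1a share of the Ppargc1 pair at 3.72% in library 3 against 0 to 0.43%, where that library held 3 Ppargc1a counts.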

How the results depend on the processing

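All 10 rises, and the falls of Fabp3, Cpt1a, Slc25a20, Acadm and Etfb, kept direction under each of 20 alternatives and the call under each of the 19 that gave a test (the change against the median has none), although Etfb shrank to -0.26 with the length trend removed. For the rises of Cd36, Ppara and Ppargc1a this adds nothing, because these genes were tested only through being higher at day 10. The other 11 falls lost the call or the direction in at least 1. On the TPM scale 18 of the 35 genes were called up and 6 down, and against the median change of all genes 16 up and 8 down. Genes whose log2 change turned positive on TPM with pseudocounts of 0.5, 0.1 and 1 were Acsl1 (0.08 in each), Cpt1b (0.69, 0.78 and 0.61), Cpt2 (0.44, 0.44 and 0.43), Hadha (0.30, 0.31 and 0.30), Echs1 (0.23 in each), Hadh (0.05 in each), Decr1 (0.06 in each), Etfa (0.02 in each) and Esrra (0.07, 0.07 and 0.06). Against that median, Cpt1b (0.27), Cpt2 (0.01) and Ppard (-0.26) were turned. With the length trend removed, Cpt2 (0.29) and Echs1 (0.08) turned, with average transcript length as an offset Cpt1b (0.41) and Ppard (-0.25) did, and with protein-coding transcripts only Hadhb (-0.01) and Decr1 (0.11) did. Leaving out 1 library gave -0.02 to 0.06 for Acadl, -0.01 to 0.09 for Ppard and -2.07 to 2.49 percentage points for the change in the Pparg share of the receptors, which was 1.51 on estimated counts. None of these genes or shares turned by leaving out a library had been called. Some genes that had not passed were called under an alternative. With the length trend removed, Cpt2 (0.29), Hadhb (0.21) and Acaa1a (0.28) were called up (edgeR adjusted p = 0.0447, 0.019 and 0.0323). With the length offset Decr1 was called down (-0.37, edgeR adjusted p = 0.0173). On the TPM scale Cpt2, Acadvl, Acadl, Hadhb and Acaa1a were called up (limma adjusted p = 0.000256 to 0.00769), but were at 0.01 to 0.23 against the median.

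Replicate numbers are shared between the days, but no label says what they stand for. Same-numbered libraries had correlated deviations of 0.030 to 0.049, too weak to pair them, although each library correlated best with its own number. With the replicate block, 12298 genes were called, and 10 of the 35 genes rose and 15 fell, Echs1 being lost (edgeR adjusted p = 0.0651). Of the 16 ratios, 12 passed with all libraries, 1 of them the Fabp4 share, which rests on 0 counts at day 0 and 26 at day 10. These 12 were the ratios whose values did not overlap between the days, beside non-overlapping CPM in 77.9% of all tested genes. Ratios of other genes were not computed. Shares within a family sum to the whole, so they are not independent of each other. With the replicate block, whose smallest possible p is 0.125, 0 passed, and 0 to 13 passed without 1 library. The 0 without 1 library arose when day 0 library 1, 3 or 4 was left out, where the lost ratios had adjusted p = 0.0508 to 0.098 (exact permutation). So few libraries allow few different p-values, so a lost call need not mean a smaller difference. The change in the Cpt1a share, for example, was -24.18, -24.37 and -24.12 percentage points there, against -24.45 with all libraries. No ratio was called in the opposite direction. The 0 called transcript shares remained 0 on counts, under the replicate block and without any 1 library, but this is no sign of stability. With all libraries, even the smallest possible p, 0.0286, was 0.115 after adjustment, although 6992 of all transcripts had an unadjusted p under 0.05. Under the block, with its smallest p of 0.125, no transcript could pass. Depth limits Cd36, Fabp4, Ppara, Pparg and Ppargc1a, which had 0 to 19 counts over the whole day 0 group.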

Other observations

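Storage and synthesis of fat, the counterparts of oxidation, were not described above. Of 9 tested genes of lipolysis and lipid storage, 2 rose, 2 fell and 5 did not pass, a called share of 44.4% beside 82.1% of all tested genes (median log2 change -0.08). Mgll, which cleaves monoacylglycerol to a free fatty acid and glycerol, had 0.461, 0.348, 1.18 and 0.393 CPM at day 0 and 5.96, 4.26, 8.40 and 5.60 CPM at day 10, and rose by 3.36 ± 0.37 (edgeR adjusted p = 9.36e-07). Like Cd36, Mgll passed the filter on low counts only through its day 10 libraries. It could thus be tested only because it was higher at day 10. Fitm2, a protein of the endoplasmic reticulum needed for lipid droplets to form, had 24.7 to 31.1 CPM at day 0 and 12.2 to 13.8 at day 10 and fell by 1.06 (SE 0.11, edgeR adjusted p = 5.28e-07).

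Of 14 genes of fatty acid synthesis, elongation and desaturation, 6 rose, 7 fell and 1 did not pass, a called share of 92.9% beside 82.1% of all tested genes (median -0.07). Scd2, a desaturase that makes monounsaturated fatty acids, had 392, 484, 450 and 461 CPM at day 0 and 1093, 1098, 1021 and 1022 CPM at day 10. It rose by 1.24 ± 0.07 (edgeR adjusted p = 8.48e-10). Elovl6, which elongates saturated and monounsaturated chains, had 227, 270, 224 and 235 CPM at day 0 and 98.8, 101, 103 and 99.99 CPM at day 10, and fell by 1.25 (SE 0.07, edgeR adjusted p = 5.47e-10). Neither gene's libraries overlapped between the days.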
